A study of Mus musculus with 6 samples.

Results

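Bulk RNA sequencing of fibrotic mouse liver was read for 8 genes of B cells and antibody-secreting plasma cells. They were Cd79a, Cd79b, Ms4a1, Jchain, Mzb1, Ighm, Igha and Igkc. They were picked by gene symbol from a table of 41388 gene identifiers, each of the 8 symbols matched 1 identifier, and all 8 were among the 15939 genes with enough reads to test. The AL/NP group held 3 libraries from livers of BALB/c mice that received carbon tetrachloride (CCl4), a liver toxin that causes fibrosis, for 5 weeks. These mice were injected 2 times a week over the last 2 weeks with AL/NP, nanoparticles carrying the bisphosphonate alendronate, at 4 mg/kg alendronate. The control group held 3 libraries from livers of BALB/c mice with the same 5 weeks of CCl4, labelled untreated. Both groups therefore carried the fibrosis. The groups were taken from the sample titles; the labels' text on the injections is attached to all 6 samples, those titled untreated included, so it does not say whether controls were injected. No particle without alendronate and no healthy liver was among the samples. The drug, its carrier and the injections cannot be told apart. The series' title speaks of particles that turn immunosuppressive macrophages toward an antifibrotic role.

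B cells recognise antigen through a surface immunoglobulin that signals through the paired chains CD79A and CD79B, and mature B cells also carry CD20, the product of Ms4a1. After activation some become plasma cells, which stop displaying the receptor and secrete antibody, with the endoplasmic reticulum protein MZB1 and, for IgM and IgA, the joining chain JCHAIN as helpers. IgA from plasma cells can be carried across epithelium by the polymeric immunoglobulin receptor PIGR.

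On the GRCm38 build, Cd79a lies on chromosome 7 (24897381 to 24902197, plus strand), Cd79b on chromosome 11 (106311341 to 106314762, minus strand) and Ms4a1 on chromosome 19 (11249675 to 11266241, minus strand). Jchain lies on chromosome 5 (88519809 to 88527891, minus strand) and Mzb1 on chromosome 18 (35647267 to 35649367, minus strand). The heavy chain genes Ighm (113418558 to 113422730) and Igha (113254830 to 113260236) share the minus strand of chromosome 12, and the kappa light chain gene Igkc lies on chromosome 6 (70726435 to 70726966, plus strand). A second model in the annotation used here, SPATA24, shares 695 exonic bases with Mzb1 on the same strand, so counts of Mzb1 are uncertain.

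Library totals were 30740173, 33283147 and 30554483 counts in AL/NP replicates 1 to 3 and 32694163, 36064739 and 39838428 in control replicates 1 to 3. A count of 3 was worth between 0.0753 and 0.0982 CPM (counts scaled to a library total of 1000000), for counting error only. Mitochondrially encoded genes took 17.0%, 14.2% and 11.96% of counts in AL/NP libraries and 16.2%, 19.8% and 26.7% in controls. Control replicate 3, which had the highest such share, also had the lowest trimmed-mean (TMM) scaling factor, 0.809, against 0.937 to 1.13 in the other 5 libraries. The part of these differences in the results was not tested. All hepatocyte markers of a list of 7 were tested, and the B cell genes Ms4a1 and Pax5 had counts in all 6 libraries, whereas Tnfrsf17, a defining plasma cell gene, had none in any AL/NP library and 1 and 2 counts in control replicates 1 and 3. The labels number the replicates without saying that each is a separate mouse, so p-values measure the spread between these samples.

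None of the 8 genes passed the test between AL/NP and control livers. That test was edgeR's quasi-likelihood test with p-values adjusted by Benjamini-Hochberg over all 15939 genes, at an adjusted p of 0.05, and it called 13 genes, 0.0816% of those tested. DESeq2, a second count test, called 0 of the 8, where it called 5.07% of 16645 genes. At an unadjusted p under 0.05 the edgeR test held 1 of the 8, Igha, against 19.6% of all genes. That gene was higher with AL/NP, as were 9.37% of all genes at this threshold, while 0 of the 8 were lower at this threshold, against 10.3% of all genes. The 3 AL/NP values did not overlap the 3 control values in 2 of the 8, Igha and Jchain, against 29.5% of all genes. Both were higher with AL/NP, a direction taken by 14.5% of all genes, and 0 of the 8 were lower without overlap, against 15.0%. These shares are near the background over all genes. The fitted fold change was positive for 4 of the 8 and negative for 4, with a median log2 fold change of -0.02, against -0.00025 over all genes tested. Fewer cells of a type and less RNA per cell cannot be told apart in whole liver RNA.

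The B cell surface genes were at 2.14 CPM or less in every library, and none passed the test. Cd79a, the alpha signalling chain of the B cell receptor, measured 0.938, 1.57 and 0.725 CPM in AL/NP replicates 1 to 3, against 1.23, 1.44 and 2.14 CPM in control replicates 1 to 3 (CPM here and below are TMM-scaled). AL/NP replicate 2 lay above 2 of the 3 controls, so the groups overlapped. The means were 1.08 ± 0.439 CPM with AL/NP, against 1.60 ± 0.477 CPM in controls (SD, n = 3 each), a log2 fold change of -0.57 (SE 0.381, edgeR adjusted p = 0.418). The fit's 95% interval for that change ran from -1.43 to 0.30, which includes 0. Single libraries moved it, to -0.95 when AL/NP replicate 2 was left out, -0.34 when AL/NP replicate 3 was and -0.31 when control replicate 3 was. Behind these values stood 27, 57 and 25 counts in AL/NP libraries and 43, 52 and 69 in controls. The spread of Cd79a among AL/NP libraries, 40.7% of the mean, was larger than the 16.6% that counting error alone gives.

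Cd79b, the beta chain that pairs with CD79A, measured 0.869, 1.38 and 1.16 CPM in AL/NP libraries, against 0.747, 1.08 and 1.12 CPM in controls. The groups overlapped, and replicate 1 was lowest in each. The log2 fold change was 0.22 (SE 0.329, 95% interval -0.53 to 0.96, edgeR adjusted p = 0.734). It was 0.053 without AL/NP replicate 2 or without control replicate 1, and 0.37 without AL/NP replicate 1. The difference between the changes of Cd79a and Cd79b was not tested.

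Ms4a1, the gene of CD20 and a marker of mature B cells rather than plasma cells, had the fewest counts of the 8. It had 3, 9 and 10 counts in AL/NP libraries, or 0.104, 0.248 and 0.290 CPM, against 9, 21 and 20 counts in controls, or 0.258, 0.580 and 0.621 CPM. Control replicate 1 fell within the AL/NP values, and the other controls lay above all of them. The log2 fold change was -1.14 (SE 0.519), the farthest from 0 among the 8, with a 95% interval from -2.32 to 0.04 and an edgeR adjusted p of 0.264. Counts this low left a counting error of 36.9% of the mean with AL/NP and 24.5% in controls.

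**Figure D1:**
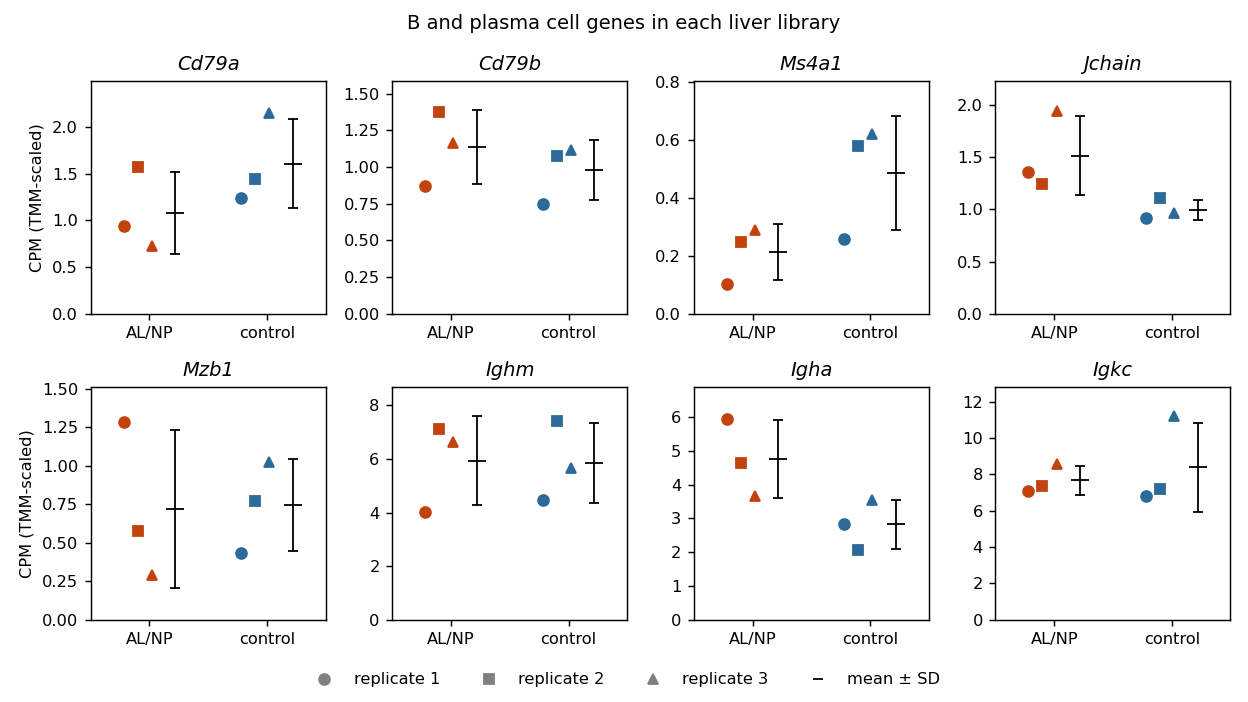
TMM-scaled CPM of the 8 genes in each library, AL/NP at the left of each panel and control at the right, with marker shapes for replicate numbers and the mean ± SD beside them (n = 3 each; each panel has its own axis, from 0). Igha and Jchain are the panels in which the 3 AL/NP points all lie above the 3 control points; Igha runs from 3.66 to 5.94 CPM with AL/NP and from 2.07 to 3.54 CPM in controls.

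The secretion genes of plasma cells were Jchain, without overlap between the groups, and Mzb1, with wide scatter. Jchain, whose product links IgM or IgA units into polymers, measured 1.36, 1.24 and 1.94 CPM in AL/NP libraries, against 0.919, 1.10 and 0.963 CPM in controls. Every AL/NP value lay above every control value, with 1.24 CPM in AL/NP replicate 2 next to 1.10 CPM in control replicate 2. The means were 1.51 ± 0.378 CPM with AL/NP, against 0.996 ± 0.0971 CPM in controls (SD, n = 3 each), a log2 fold change of 0.60 (SE 0.307, 95% interval -0.09 to 1.30) that did not pass (edgeR adjusted p = 0.2996) and was 0.38 without AL/NP replicate 3. The counts were 39, 45 and 67 with AL/NP and 32, 40 and 31 in controls, so the raw counts overlapped, at 39 and 40, before scaling.

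Mzb1, an endoplasmic reticulum cochaperone of antibody assembly in marginal zone B and plasma cells, measured 1.29, 0.578 and 0.290 CPM in AL/NP libraries, against 0.431, 0.773 and 1.03 CPM in controls. The AL/NP values ran both higher and lower than all 3 controls. The log2 fold change was -0.07 (SE 0.556, edgeR adjusted p = 0.957), with a 95% interval from -1.33 to 1.20, so these libraries set little limit on a change of Mzb1 in either direction. Its SD among AL/NP libraries was 71.4% of the mean, where counting error alone gives 21.0%. The sign of its change turned in several alternative fits, as it did for Ighm and Igkc.

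Mzb1 is also known from plasmacytoid dendritic cells. Siglech, a defining gene of those cells, measured 1.29, 0.991 and 0.754 CPM in AL/NP libraries, against 0.632, 0.773 and 1.74 CPM in controls, so it was present in every library. The 6 genes of that cell type's list all had counts, 4 were tested and 0 had an unadjusted p under 0.05. Their summed level ran from 220.5 to 376 CPM with AL/NP and from 64.8 to 320 CPM in controls, nearly all of it Ly6d. The part of such cells in the level of Mzb1 was not tested.

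The immunoglobulin constant genes held the most counts of the 8. Ighm, the heavy chain of IgM, measured 4.03, 7.13 and 6.64 CPM in AL/NP libraries, against 4.45, 7.43 and 5.65 CPM in controls. The groups covered nearly the same range, with replicate 1 lowest in each. Its fitted log2 fold change was 0.02 (SE 0.279, 95% interval -0.61 to 0.66, edgeR adjusted p = 0.969).

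Igha, the heavy chain of IgA, the antibody class of mucosal surfaces, measured 5.94, 4.65 and 3.66 CPM in AL/NP libraries, against 2.84, 2.07 and 3.54 CPM in controls. All AL/NP values lay above all controls, though 3.66 CPM in AL/NP replicate 3 was close to 3.54 CPM in control replicate 3. The means were 4.75 ± 1.15 CPM with AL/NP, against 2.82 ± 0.735 CPM in controls (SD, n = 3 each). The log2 fold change was 0.75 (SE 0.284, 95% interval 0.11 to 1.40), with an unadjusted p of 0.0272 and an edgeR adjusted p of 0.209, so Igha did not pass. DESeq2 gave an adjusted p of 0.130. Leaving out one library at a time, its unadjusted edgeR p ran from 0.0126 without control replicate 3 to 0.105 without control replicate 2, and it was also above 0.05 without AL/NP replicate 1, AL/NP replicate 2 or control replicate 1.

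Igkc, the constant part of the kappa light chain, which pairs with any heavy chain class, measured 7.09, 7.35 and 8.59 CPM in AL/NP libraries, against 6.81, 7.18 and 11.2 CPM in controls. The values overlapped and only control replicate 3 stood above the rest. Its fitted log2 fold change was -0.13 (SE 0.226, 95% interval -0.64 to 0.38, edgeR adjusted p = 0.773), the smallest standard error of the 8.

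Summed by role, the 3 surface genes came to 1.91, 3.19 and 2.18 CPM in AL/NP libraries, against 2.24, 3.09 and 3.88 CPM in controls. The 2 secretion genes came to 2.64, 1.82 and 2.23 CPM with AL/NP, against 1.35, 1.88 and 1.99 CPM in controls, and the 3 constant genes to 17.1, 19.1 and 18.9 CPM with AL/NP, against 14.1, 16.7 and 20.4 CPM in controls. All 3 sums overlapped between the groups.

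Levels were compared between genes after division by exonic length, as CPM per kilobase over the exons of all annotated transcripts. In AL/NP livers Igkc led with a mean of 14.4 CPM per kilobase, followed by Ighm at 3.15, Igha at 1.78, Cd79b at 0.793, Cd79a at 0.740, Jchain at 0.601, Mzb1 at 0.591 and Ms4a1 at 0.0346. In control livers the order was Igkc at 15.8 CPM per kilobase, Ighm at 3.10, Cd79a at 1.10, Igha at 1.06, Cd79b at 0.685, Mzb1 at 0.612, Jchain at 0.396 and Ms4a1 at 0.0786. Igkc above all others and Ms4a1 below all others held in every library of both groups. In AL/NP libraries Ighm (2.14 to 3.78) and Igha (1.37 to 2.23) overlapped in CPM per kilobase, and Igha stayed above Cd79b (0.607 to 0.962). In controls Igha (0.776 to 1.33) overlapped both Cd79a (0.848 to 1.47) and Cd79b (0.522 to 0.781). Neighbours among Cd79a, Cd79b, Jchain and Mzb1 overlapped with AL/NP, and so did the neighbours Cd79b, Mzb1 and Jchain in controls. The exonic length used for Ms4a1 covers several transcripts, which lowers its value per kilobase.

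JCHAIN attaches to IgM and IgA through a short tail at the end of the secreted heavy chain, which the membrane form lacks, and whose cysteine next to the last residue forms the bond. The tails are shown because Igha and Jchain were the 2 of the 8 without overlap between the groups while Ighm, which encodes the same kind of tail, overlapped. They are the last 57 coding bases of the annotated secreted transcripts, read on the minus strand at chr12:113258771-113258827 for Igha and chr12:113420870-113420926 for Ighm (GRCm38, GENCODE M21), with the cysteine codon in capitals.
Igha: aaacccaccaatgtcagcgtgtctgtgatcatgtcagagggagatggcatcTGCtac
Ighm: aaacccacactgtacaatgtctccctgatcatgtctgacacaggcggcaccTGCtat
The tails were identical at 38 of 57 bases, or 66.7%, and at 11 of 19 encoded residues, and the cysteine codon was the same.

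Promoters were available for 2 of the 8 genes, Cd79a and Jchain, in the RefSeq table of GRCm38.p6, and they are shown as examples of a gene used throughout the B lineage and of one used mainly by plasma cells. Each runs from 250 bases before to 50 bases after the start annotated in RefSeq, at chr7:24897247-24897546 on the plus strand for Cd79a and chr5:88527848-88528147 on the minus strand for Jchain. The gene coordinates given above are from GENCODE, whose starts differ from these. For Cd79a the GENCODE start, 24897381, lies inside the window, upstream of the RefSeq start. Capitals mark E-boxes, the motif CANNTG (the same on both strands) that E2A, the product of Tcf3, is known to bind.
Cd79a: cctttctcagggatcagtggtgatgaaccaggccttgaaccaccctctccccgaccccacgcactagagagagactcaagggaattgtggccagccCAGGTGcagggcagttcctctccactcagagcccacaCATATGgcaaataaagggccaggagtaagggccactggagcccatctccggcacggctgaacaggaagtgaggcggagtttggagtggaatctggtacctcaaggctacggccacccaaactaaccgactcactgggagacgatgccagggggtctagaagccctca
Jchain: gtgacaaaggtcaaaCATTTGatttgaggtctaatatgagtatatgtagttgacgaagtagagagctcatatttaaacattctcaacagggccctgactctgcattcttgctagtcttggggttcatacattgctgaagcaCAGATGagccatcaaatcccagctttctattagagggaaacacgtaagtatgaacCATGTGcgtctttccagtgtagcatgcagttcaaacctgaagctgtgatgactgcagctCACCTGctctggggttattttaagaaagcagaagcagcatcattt
The motif stood 2 times in the Cd79a promoter and 4 times in that of Jchain, and 72.3% of 32851 promoters of this length held it at least once. The octamer ATGCAAAT, bound by POU2F factors and searched on both strands, was in neither window and in 1.74% of promoters. The TATAAA motif, also searched on both strands, was in neither and in 13.6% of promoters. No statement on binding follows from these matches.

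The other immunoglobulin constant genes were read to set Ighm, Igha and Igkc in their classes. The list held 14 genes, of which 9 had a row in the table and 5 were tested. At an unadjusted p under 0.05, 2 of the 5, Ighg1 and Igha, were higher with AL/NP and 0 lower, against 9.37% and 10.3% of all genes; the 2 became 0 without control replicate 2 and 1 without any other library. The median log2 fold change was 0.02, and it ranged from -0.14 to 0.24 as each library was left out. Ighd, Ighg2a, Iglc1, Iglc3 and Iglc4 had no row under their symbol, so the class sums and shares below leave them out. Ighg1, the heavy chain of IgG1, had 21, 22 and 103 counts in AL/NP libraries, against 19, 8 and 10 in controls, or 0.730, 0.605 and 2.99 CPM against 0.546, 0.221 and 0.311 CPM. AL/NP replicate 3 held most of the counts of Ighg1 in its group, and the other AL/NP libraries were just above control replicate 1. Its log2 fold change was 2.00 (SE 0.679, edgeR adjusted p = 0.186), and 0.88 without AL/NP replicate 3.

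The remaining classes were scarce. Ighg2b had 4, 5 and 10 counts with AL/NP and 9, 4 and 8 in controls. Ighg2c had 2, 0 and 8 with AL/NP and 4, 0 and 7 in controls, and Ighg3 had 3, 1 and 8 with AL/NP and 2, 5 and 5 in controls. Ighe, the heavy chain of IgE, had 0, 0 and 2 counts with AL/NP and 0, 1 and 0 in controls. These 4 were too low to test. The IgG genes resemble each other closely, and the mice were BALB/c while the reference genome is C57BL/6, so the split of reads among IgG genes is uncertain. The light chain gene Iglc2, of the lambda type, was at 0.640 ± 0.1496 CPM with AL/NP, against 0.760 ± 0.365 CPM in controls (SD, n = 3 each; log2 fold change -0.24, edgeR adjusted p = 0.774).

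Shares of the summed heavy chain counts do not depend on scaling between libraries. The sums covered Ighm, Igha, the 4 IgG genes with a row and Ighe. They were 317, 456 and 486 counts in AL/NP libraries and 288, 362 and 326 in controls. Igha took 53.9% (95% Wilson interval 48.4 to 59.4), 37.1% (32.8 to 41.6) and 25.9% (22.2 to 30.0) of them in AL/NP replicates 1 to 3, against 34.4% (29.1 to 40.03), 20.7% (16.9 to 25.2) and 34.97% (29.995 to 40.3) in control replicates 1 to 3. AL/NP replicates 1 and 2 lay above all controls and AL/NP replicate 3 did not. The intervals cover counting error only. The mean share of Igha was 39.0% ± 14.1 with AL/NP and 30.02% ± 8.06 in controls (SD, n = 3 each; two-sided exact permutation p = 0.4). Ighm took 36.6%, 56.8% and 47.1% in AL/NP libraries, against 53.8%, 74.3% and 55.8% in controls. These overlapped (means 46.8% ± 10.1 with AL/NP and 61.3% ± 11.3 in controls, exact permutation p = 0.3). The 4 IgG genes together took 9.46%, 6.14% and 26.5% with AL/NP, against 11.8%, 4.70% and 9.20% in controls, with only AL/NP replicate 3 above the rest (exact permutation p = 0.6). The mean difference in the IgG share was 5.48 percentage points, and -0.77 without AL/NP replicate 3. Igkc took 92.7%, 93.03% and 91.4% of summed Igkc and Iglc2 counts with AL/NP and 92.2%, 93.2% and 90.5% in controls (exact permutation p = 0.7). Iglc2 was the only lambda constant gene in that sum. Adjusted by Benjamini-Hochberg over these 4 shares, each p was 0.7, and 3 libraries against 3 cannot give a p below 0.1.

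**Figure D2:**
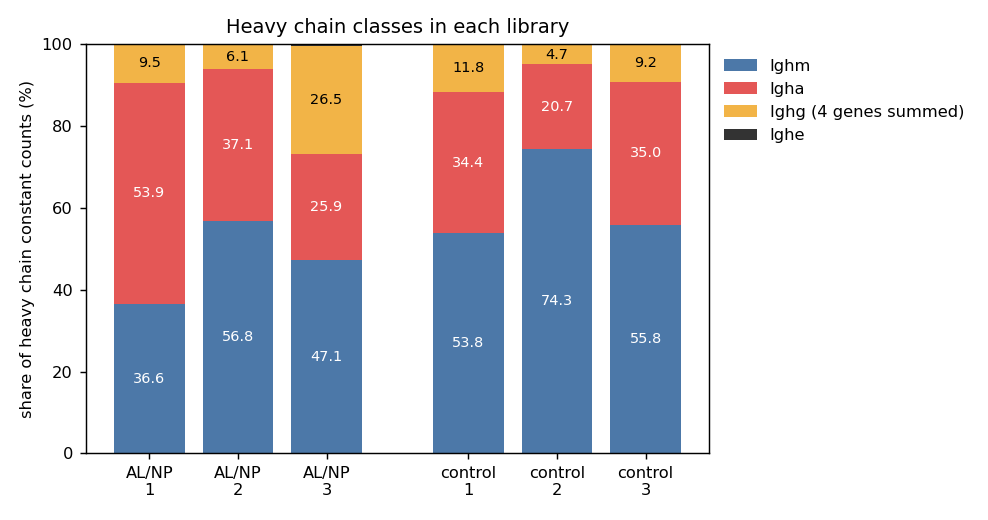
Share of heavy chain constant counts, in percent, taken by Ighm, Igha, the 4 IgG genes summed and Ighe, 1 bar per library, AL/NP at the left and control at the right. Igha takes its largest share, 53.9%, in AL/NP replicate 1 and IgG its largest, 26.5%, in AL/NP replicate 3. Ighm takes over 50% in all 3 controls and also in AL/NP replicate 2, at 56.8%.

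Variable segments, which encode the antigen-binding end of an antibody and are joined to the constant genes, give a view of how many different antibodies the counts came from. The table held 214 such segments (108 heavy, 103 kappa, 3 lambda), 167 had a count, and 0 reached the level for testing. Their summed counts were 91, 159 and 237 in AL/NP libraries, against 154, 170 and 88 in controls, or 2.96, 4.78 and 7.76 CPM of the library total against 4.71, 4.71 and 2.21. AL/NP replicate 3 was highest and control replicate 3 lowest, and the groups overlapped. Segments with a count numbered 50, 86 and 93 with AL/NP and 87, 83 and 57 in controls, and were fewest in AL/NP replicate 1 and control replicate 3, which had the fewest variable counts. The most abundant segment took 9.89%, 5.03% and 6.75% of variable counts in AL/NP libraries and 5.84%, 13.5% and 4.55% in controls. These shares pool heavy, kappa and lambda counts. Among heavy segments the largest share was 21.6%, for Ighv7-4 in AL/NP replicate 3. Among kappa segments it was 19.3%, for Igkv8-27 in control replicate 2. The counts are too few to judge whether 1 antibody was abundant in a library.

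The 5 segments with the highest mean level were Igkv1-110, Iglv1, Igkv8-27, Igkv4-59 and Igkv1-117. Igkv1-110 had 9, 4 and 12 counts with AL/NP and 4, 3 and 2 in controls, and Iglv1 had 3, 8 and 7 with AL/NP and 1, 8 and 4 in controls. Igkv8-27 had 0, 1 and 6 counts with AL/NP and 0, 23 and 0 in controls, so control replicate 2 held most of them. Igkv4-59 had 4, 3 and 7 with AL/NP and 5, 2 and 4 in controls, and Igkv1-117 had 1, 6 and 6 with AL/NP and 6, 4 and 1 in controls. Ighv7-4, chosen after its values were seen, had 0, 0 and 16 counts with AL/NP and 0, 0 and 1 in controls. Single segments thus stood out in 1 library each: Ighv7-4 in AL/NP replicate 3, where Ighg1 also had its highest count, and Igkv8-27 in control replicate 2. Reads of BALB/c segments were counted on C57BL/6 models, so segment names are uncertain.

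**Figure D3:**
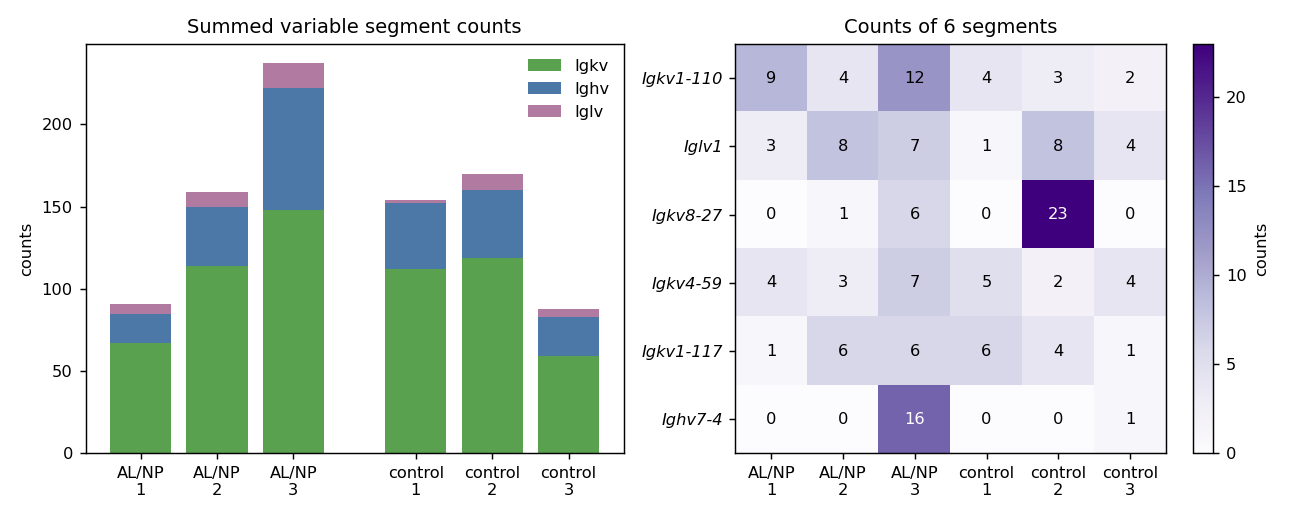
Left, summed counts of kappa, heavy and lambda variable segments in each library, stacked, AL/NP before control. Right, counts of 6 segments in each library on a colour scale from 0 to 23 counts; Ighv7-4 has 16 counts in AL/NP replicate 3 and Igkv8-27 has 23 in control replicate 2.

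Genes of the B cell receptor and its coreceptors were read as a list that includes Cd79a, Cd79b and Ms4a1. Of its 20 genes, 18 were tested, 2 were higher and 1 lower with AL/NP at an unadjusted p under 0.05, against 9.37% and 10.3% of all genes, and edgeR and DESeq2 called 0. The median log2 fold change was -0.07; leaving out AL/NP replicate 1 gave 0.18 and leaving out control replicate 3 gave 0.16. With each library left out, the number higher lay between 1 and 4 and the number lower between 1 and 3. Fcer2a, the low-affinity IgE receptor CD23 of mature B cells, measured 0.382, 0.385 and 0.348 CPM with AL/NP, against 0.603, 0.856 and 1.21 CPM in controls. Its groups did not overlap (log2 fold change -1.25, SE 0.382, edgeR adjusted p = 0.159). The 2 higher genes were the kinases Syk, at 0.94 (SE 0.309, edgeR adjusted p = 0.177), and Lyn, at 0.45 (SE 0.163, edgeR adjusted p = 0.201). Both kinases also act in myeloid cells; macrophage markers summed to 316, 316 and 385 CPM with AL/NP, against 176, 173 and 237 CPM in controls, and the part of such cells was not tested.

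Among B cell transcription factors, 11 of 12 were tested, and 1 was higher and 3 lower with AL/NP at an unadjusted p under 0.05, against 9.37% and 10.3% of all genes. The 3 lower became 1 without AL/NP replicate 2 or control replicate 3, and 2 without AL/NP replicate 3, control replicate 1 or control replicate 2; without control replicate 3 the number higher became 2. The median log2 fold change was -0.20 (-0.31 to -0.03 with each library left out). None was called by edgeR and 2, Bach2 and Pou2f2, were called by DESeq2, against 5.07% of all genes. Genes of this list differed widely in level. With AL/NP, Pax5 averaged 0.297 CPM, against 16.6 CPM for Foxo1 and 20.7 CPM for Tcf3. In controls Bach2 averaged 4.84 CPM, against 0.626 CPM for Pax5. The part of cells other than B cells in the levels of Bach2, Pou2f2 and the rest of the list was not tested. Bach2, a repressor that holds back plasma cell development, measured 1.46, 2.01 and 2.20 CPM with AL/NP, against 5.71, 5.61 and 3.199 CPM in controls. The groups did not overlap (log2 fold change -1.35, SE 0.301, edgeR adjusted p = 0.113, DESeq2 adjusted p = 0.00296). Pou2f2, which encodes the octamer-binding factor OCT2, measured 4.21, 5.15 and 5.66 CPM with AL/NP, against 1.58, 1.298 and 2.83 CPM in controls, again without overlap but in the other direction (log2 fold change 1.40, SE 0.321, edgeR adjusted p = 0.121, DESeq2 adjusted p = 0.002004). Its B cell partner Pou2af1 measured 0.278, 0.413 and 0.406 CPM with AL/NP, against 0.459, 0.994 and 1.02 CPM in controls (log2 fold change -1.16, SE 0.425, edgeR adjusted p = 0.202). Pax5, the factor that keeps B cell identity and is known to act on Cd79a, had 12, 12 and 5 counts with AL/NP and 22, 17 and 25 in controls (log2 fold change -1.07, SE 0.459, edgeR adjusted p = 0.246).

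The plasma cell list, which includes Jchain and Mzb1, had fitted changes on both sides of 0, with 9 tested genes above it and 8 below. Its genes differed widely in level. With AL/NP, Jchain averaged 1.51 CPM, against 88.3 CPM for Fkbp11 and 220.8 CPM for Xbp1. The part of hepatocytes and other cells in the list's counts and median was not tested. Of its 20 genes, 17 were tested, and 2 were higher and 1 lower at an unadjusted p under 0.05, against 9.37% and 10.3% of all genes. With each library left out these numbers lay between 1 and 3 and between 0 and 1. The median log2 fold change was 0.01, or -0.05 without AL/NP replicate 3. Pim2, a survival kinase of plasma and other blood cells, measured 7.33, 5.12 and 6.47 CPM with AL/NP, against 3.50, 4.005 and 3.32 CPM in controls, without overlap (log2 fold change 0.80, SE 0.216, edgeR adjusted p = 0.144, DESeq2 adjusted p = 0.0313). Tnfrsf13b, the TACI receptor for B cell survival factors, measured 1.15, 1.02 and 1.89 CPM with AL/NP, against 0.402, 0.470 and 0.932 CPM in controls (log2 fold change 1.17, SE 0.428, edgeR adjusted p = 0.201). Fkbp11, a secretory pathway gene, measured 73.9, 86.99 and 103.9 CPM with AL/NP, against 100.02, 122 and 180.2 CPM in controls (log2 fold change -0.60, SE 0.236, edgeR adjusted p = 0.218). Prdm1, the regulator that turns on the plasma cell program, had 10, 12 and 20 counts with AL/NP and 22, 16 and 23 in controls (log2 fold change -0.50, edgeR adjusted p = 0.495). Xbp1, which drives secretory capacity and is also a hepatocyte gene, was at 220.8 ± 45.8 CPM with AL/NP, against 211 ± 83.1 CPM in controls (SD, n = 3 each; log2 fold change 0.06, edgeR adjusted p = 0.922). Tnfrsf17, which encodes the plasma cell receptor BCMA, had 0, 0 and 0 counts with AL/NP and 1, 0 and 2 in controls and was not testable, so a defining plasma cell gene was at the limit of these libraries.

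**Figure D4:**
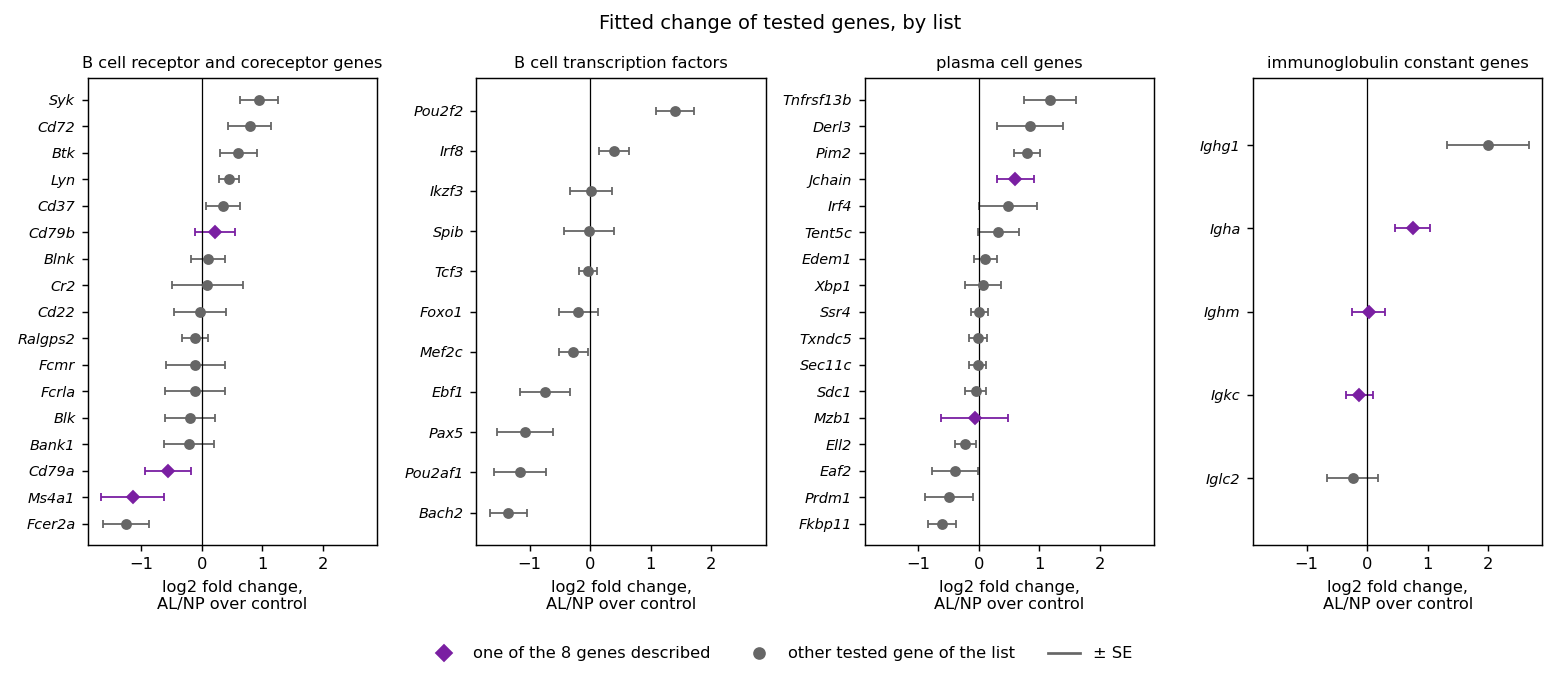
Fitted log2 fold changes, AL/NP over control, of tested genes in the lists of B cell receptor and coreceptor genes, B cell transcription factors, plasma cell genes and immunoglobulin constant genes, with bars for ± SE; diamonds are the 8 genes and circles the other genes of each list. The genes drawn lie on both sides of 0 in every list, from Bach2 at -1.35 to Ighg1 at 2.00, and none passed the edgeR test.

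Germinal centre and class switch genes were read because class switching makes IgA and IgG from IgM. Of 12 genes, 9 were tested, 2 were higher and 3 lower at an unadjusted p under 0.05, against 9.37% and 10.3% of all genes. These counts fell to 1 higher and 0 lower without AL/NP replicate 1 or AL/NP replicate 2, to 1 and 1 without control replicate 3 and to 1 and 2 without control replicate 1. The list had a median log2 fold change of 0.12 that lay between -0.09 and 0.20 with each library left out. The 3 with the smallest p were S1pr2 at 0.79 (SE 0.248), Exo1 at -1.23 (SE 0.432) and Msh6 at -0.51 (SE 0.182), with edgeR adjusted p of 0.167, 0.193 and 0.196. Exo1 and Msh6 are DNA repair genes that all dividing cells use. The other lower gene, Mki67, a marker of dividing cells of any type chosen here after its values were seen, measured 3.20, 2.86 and 6.59 CPM with AL/NP, against 6.86, 6.16 and 13.0 CPM in controls, with overlap (log2 fold change -1.04, SE 0.391, edgeR adjusted p = 0.208). Rgs13 and Gcsam of this list, also chosen after their values were seen, were too low to test. Rgs13 had 0, 0 and 0 counts with AL/NP and 0, 0 and 1 in controls. Gcsam had 2, 6 and 7 with AL/NP and 6, 6 and 4 in controls. The part of cells other than B cells in the list's counts and median was not tested.

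Among B cell survival, homing and help genes, 11 of 20 were tested, and 2 were higher and 0 lower at an unadjusted p under 0.05, against 9.37% and 10.3% of all genes. The 2 became 0 without control replicate 1, stayed 2 without control replicate 3 and became 1 without any other library. Their median log2 fold change was 0.36 (0.20 to 0.54 with each library left out). Ltb, a lymphotoxin chain, was at 0.69 (SE 0.258), the integrin chain Itga4 at 0.72 (SE 0.293) and the homing receptor Ccr7 at 0.85 (SE 0.375), with edgeR adjusted p of 0.208, 0.2295 and 0.255. Tnfsf13b, the B cell survival factor BAFF, had 7, 13 and 10 counts with AL/NP and 2, 13 and 9 in controls (log2 fold change 0.36, edgeR adjusted p = 0.755). Cxcl13, the chemokine of B cell follicles, had 12, 8 and 30 counts with AL/NP and 12, 5 and 18 in controls (log2 fold change 0.54, edgeR adjusted p = 0.644). Both groups overlapped in Tnfsf13b and in Cxcl13.

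Genes that move antibody or bind it were read as a list of 12. Of these 11 were tested, 4 were higher and 0 lower at an unadjusted p under 0.05, against 9.37% and 10.3% of all genes, edgeR called 0 and DESeq2 called 3, against 5.07% of all genes. The number higher lay between 3 and 6 with each library left out, at 6 without control replicate 3. The median log2 fold change was 0.44, and 0.26 without AL/NP replicate 1. Several Fc receptors of the list are genes of myeloid cells, and at the same threshold 5 of 8 macrophage markers and 8 of 10 markers shared by leukocytes were also higher; their part in these values was not tested. Fcgr4, a mouse Fc receptor of myeloid cells for IgG, measured 3.82, 6.03 and 7.37 CPM with AL/NP, against 1.52, 1.16 and 2.42 CPM in controls (log2 fold change 1.76, SE 0.351, edgeR adjusted p = 0.0998). Fcgrt, the neonatal Fc receptor that recycles IgG, was at 0.76 (SE 0.185, edgeR adjusted p = 0.126) and Fcgr3 at 1.24 (SE 0.343, edgeR adjusted p = 0.144). Pigr, which carries polymeric IgA made with JCHAIN across epithelium, measured 887, 458 and 423 CPM with AL/NP, against 389.8, 454 and 571 CPM in controls. AL/NP replicate 1, which had the highest Igha level, also had the highest Pigr level, and the groups overlapped (log2 fold change 0.32, SE 0.298, edgeR adjusted p = 0.557).

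The 8 genes were also set against a sum of marker genes shared by leukocytes, which measured higher with AL/NP. The summed level of 10 genes shared by leukocytes (Ptprc, Laptm5, Coro1a, Cd52, Cd53, Ptpn6, Arhgdib, Rac2, Lcp1 and Cytip) was 173, 213 and 270 CPM in AL/NP libraries, against 118, 97.4 and 152 CPM in controls. Of the 10, 8 were higher and 0 lower at an unadjusted p under 0.05, against 9.37% and 10.3% of all genes. DESeq2 called 5, against 5.07% of all genes, and edgeR called 0. The median log2 fold change was 0.86, and between 0.71 and 1.05 with each library left out. Macrophage markers (5 of 8 tested higher at that threshold, 0 lower) summed to between 316 and 385 CPM with AL/NP and between 173 and 237 CPM in controls. Neutrophil markers (4 of 6 tested higher at that threshold, 0 lower) summed to between 34.6 and 74.3 CPM with AL/NP and between 18.9 and 34.01 CPM in controls. Median log2 fold changes were 0.84 for macrophage and 1.28 for neutrophil markers. With each library left out they lay between 0.50 and 0.94 for macrophage and between 0.77 and 1.61 for neutrophil markers. Both were lowest without AL/NP replicate 3. For T cell markers the median was 0.15, and for natural killer markers, with 2 tested, 0.017. The part of each cell type in the sum of the 10 genes was not tested.

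Relative to 1000 counts of those 10 leukocyte genes, most genes of the liver were lower with AL/NP. The groups did not overlap in 53.9% of the 15939 genes tested, lower in 53.3% and higher in 0.602%, and the median ratio of means was 0.559. Against that, 4 of the 8 were lower without overlap and 0 higher, a share near the background. Cd79a stood at 5.43, 7.36 and 2.68 per 1000 leukocyte counts in AL/NP libraries, against 10.5, 14.7 and 14.1 in controls, a ratio of means of 0.393. Ms4a1 stood at 0.603, 1.16 and 1.07 with AL/NP, against 2.20, 5.95 and 4.10 in controls, a ratio of 0.232. Both lay below the median gene, and their AL/NP values were all under their controls.

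Ighm stood at 23.3, 33.5 and 24.6 per 1000 leukocyte counts with AL/NP, against 37.8, 76.2 and 37.3 in controls (ratio of means 0.537), and Igkc at 41.01, 34.5 and 31.8 with AL/NP, against 57.8, 73.7 and 73.9 in controls (ratio 0.522). These were close to the ratio of the median gene. The groups overlapped for Cd79b (ratio 0.637), Jchain (0.817), Mzb1 (0.612) and Igha (1.01). Igha stood at 34.4, 21.8 and 13.5 with AL/NP, against 24.2, 21.3 and 23.3 in controls, so its AL/NP libraries lay on both sides of the controls. By two-sided exact permutation tests over the libraries, p was 0.1 for Cd79a, Ms4a1, Ighm and Igkc, the lowest that 3 against 3 can give, 0.2 for Cd79b, 0.3 for Mzb1, 0.5 for Jchain and 0.9 for Igha.

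**Figure D5:**
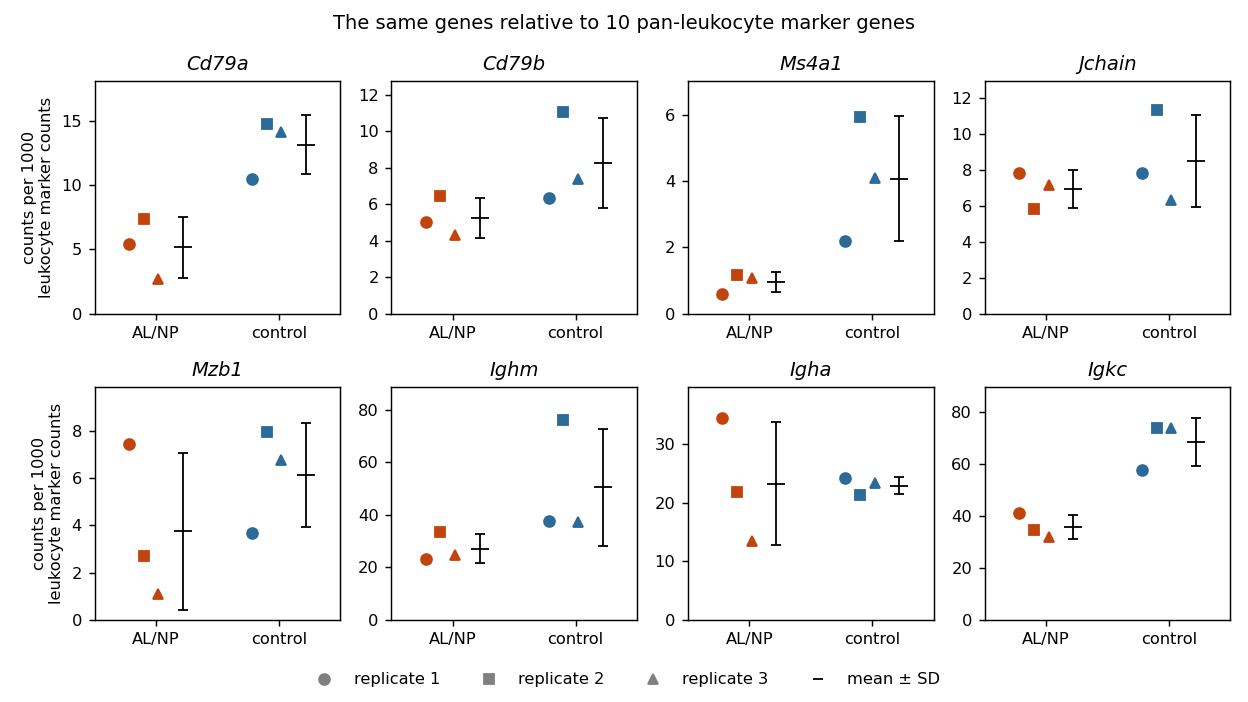
Counts of each of the 8 genes per 1000 counts of 10 pan-leukocyte genes, AL/NP at the left of each panel and control at the right, with the mean ± SD beside the 3 libraries (each panel has its own axis, from 0). All AL/NP points lie under all control points for Cd79a, Ms4a1, Ighm and Igkc; over all genes tested the share with that pattern was 53.3%.

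Markers of other cells that the tissue pieces could hold were read for the whole list in each case. T cell markers (9 of 12 tested, 1 higher at an unadjusted p under 0.05) summed to between 6.79 and 23.8 CPM with AL/NP and between 4.80 and 7.36 CPM in controls, where Cd3e alone had 478, 97 and 42 counts in AL/NP replicates 1 to 3, against 25, 28 and 16 in control replicates 1 to 3. Natural killer markers (2 of 7 tested, 0 at that threshold) summed to between 1.31 and 1.68 CPM with AL/NP and between 0.890 and 1.89 CPM in controls. Lymph node stromal markers (4 of 6 tested, 0 at that threshold) summed to between 23.7 and 34.5 CPM with AL/NP and between 25.99 and 44.1 CPM in controls. Red cell markers (6 of 6 tested, 1 higher) summed to between 379 and 969 CPM with AL/NP and between 438 and 890.2 CPM in controls, and hepatocyte markers (7 of 7 tested, 1 higher and 1 lower) to between 51402 and 60384 CPM with AL/NP and between 60720 and 79356 CPM in controls. All listed markers had at least 1 count. The part of these cells, or of blood and lymph tissue in the pieces, in the levels of the 8 genes was not tested.

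Genes whose pattern over the 6 libraries lay closest to Cd79a and to Jchain were sought among 13713 genes with a mean of at least 1 CPM, by the root mean square difference of centred log2 (CPM + 0.1). Closest to Cd79a were Isg15 (difference 0.142), Ccdc17, Sspo, Slc8b1 and Lmbr1l (0.176), and none of these is a B cell gene of the lists. Several B cell genes of the lists, among them Ms4a1, Pax5, Fcer2a and Pou2af1, averaged under 1 CPM. They were outside the search, so it could not have returned them. Isg15 measured 23.4, 39.4 and 19.3 CPM with AL/NP, against 28.4, 28.03 and 55.3 CPM in controls. Closest to Jchain were Golph3l (0.0724), Gm11223, Esyt1, Serpinb6a and Cd86 (0.106). Golph3l measured 6.53, 6.91 and 9.23 CPM with AL/NP, against 4.59, 5.44 and 4.75 CPM in controls. These likenesses are a description over 6 libraries, with no test.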

How the data were processed

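Whole-liver RNA of 6 libraries was compared, 3 AL/NP and 3 control. Per the labels' protocols, total RNA was extracted from frozen pieces of liver, polyadenylated RNA was selected, and a strand-marking kit and paired-end reads were used. The deposited table holds whole-number read counts per Ensembl gene, not normalized; the authors' tools were STAR 2.6.1a, featureCounts (no version) and DESeq2 1.26.0 on GRCm38, per the submitters' processing notes. The strand setting, annotation release and treatment of reads with several matches are not given in the sources used here, so antisense or near-identical genes may share reads.

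From the counts, groups were compared with edgeR 4.0.16 in R 4.3.3 (quasi-likelihood test, TMM scaling, filterByExpr with a minimum count of 10, robust fit, two-sided). The log2 fold change sets AL/NP over control, and intervals come from the fit. Libraries of 30554483 to 39838428 counts gave a biological coefficient of variation of 23.3%; no 2 libraries were duplicates (chi-square per degree of freedom at least 30.6). Of the identifiers, 40254 had a symbol in the reference table and 29551 had a count. Coordinates, exonic lengths and tails came from GENCODE M21 (GRCm38), promoters from RefSeq (GRCm38.p6). The test was checked on simulated data in which every gene had the same spread, smaller than the one fitted here. That check therefore does not cover the gene-to-gene differences in spread of these libraries.

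The 8 genes and the 16 lists were chosen with earlier results of these data known. Named genes were the 8, the other immunoglobulin constant genes with a count, the 3 tested genes with the smallest p of each other B lineage or antibody list, a set of genes named whatever their values (Pax5, Xbp1, Prdm1, Tnfrsf17, Pigr, Tnfsf13b and Cxcl13), defining genes of other cell types, the 5 highest variable segments and the genes of closest pattern. For 2 further genes of that set, values are left out here. Alternatives were DESeq2 size factors, library totals, no filter beyond 1 count, a minimum of 50 counts in 3 libraries, a replicate block, single libraries left out, no robust estimation, limma-voom of limma 3.58.1, DESeq2 1.42.0, length-divided class shares and TMM-scaled variable segment sums. Leaving out libraries for 9 further genes and for the ratios to leukocyte genes was added after the data were seen. Scripts used Python 3.11.15 with scipy 1.17.1.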

Additional observations from a re-analysis of the deposited data

How the results depend on the processing

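No adjusted p of the 8 genes was under 0.05 in any of the 13 or 14 alternatives run for each, and Cd79a, Cd79b, Ms4a1, Jchain and Igha kept their direction in all of theirs. As each library was left out, the log2 fold change ranged from -0.95 to -0.31 for Cd79a, 0.053 to 0.37 for Cd79b, -1.45 to -0.85 for Ms4a1, 0.38 to 0.73 for Jchain and 0.56 to 0.95 for Igha. The sign of Mzb1 turned with library totals (log2 fold change 0.0596) and ranged from -0.76 to 0.31 as each library was left out, that of Ighm ranged from -0.14 to 0.24, and that of Igkc was 0.0493 with library totals and ranged from -0.26 to 0.13. Library totals moved the median of all genes to 0.13. Over all genes, 13 were called in the fit reported; 0 were called with library totals, 747 with no filter beyond 1 count, 0 with at least 50 counts in 3 libraries, 0 without robust estimation, 844 with DESeq2, 13 with DESeq2 size factors, 10 with limma-voom, and between 0 and 4 as each library was left out; the cause was not tested. Where edgeR called 0, an unadjusted p under 0.05 was held by 2254 genes with library totals, 2786 with at least 50 counts, 3133 without robust estimation, and 2328, 2880, 2461 and 3022 without AL/NP replicate 2, AL/NP replicate 3, control replicate 2 and control replicate 3. With the replicate number as a block 23 were called; deviations of libraries with the same number correlated across genes at -0.042, 0.021 and 0.087, so the numbers were not taken as pairs, and the block changed no call among the 8.

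As each library was left out, the difference in class share, AL/NP minus control, ranged from 1.47 to 15.5 percentage points for Igha, from -19.5 to -7.99 for Ighm, from -0.77 to 9.44 for IgG and from -0.33 to 1.03 for Igkc of light chains. That in variable segment counts, in CPM of library totals, ranged from -0.0089 to 2.39 for all, from -0.15 to 0.76 for heavy, from 0.067 to 1.399 for kappa and from 0.078 to 0.226 for lambda segments, turning only without AL/NP replicate 3. Igha per 1000 leukocyte counts, a difference of 0.32, ranged from -5.25 when AL/NP replicate 1 was left out to 5.18 when AL/NP replicate 3 was, and was -0.51 when control replicate 2 was. Among the 8 genes depth limits Ms4a1 most. Beyond them it limits genes too low to test, such as Tnfrsf17, Ighe, the minor IgG genes and the variable segments.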
